A study of Homo sapiens with 24 samples.

Results

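The genes described here are 10 members of the WNT family of secreted ligands, WNT2B, WNT3, WNT4, WNT5A, WNT5B, WNT6, WNT7B, WNT9A, WNT10A and WNT11, followed in HepaRG cells under 8 culture conditions. A probe was counted to a gene when the RefSeq transcript given for it in the array design belongs to that gene, which took 12 probes for the 10 genes, out of 20503 genes with a RefSeq symbol on the array. HepaRG is a human cell line established from a hepatocellular carcinoma, and its cells can take on hepatocyte-like or biliary-like features. RNA was hybridised to 24 Agilent arrays in a single colour, 3 per condition, each from an independent culture. The conditions were untransfected cells, cells transfected by electroporation with 80 pmol of a control siRNA, cells transfected with 80 pmol of a siRNA against β-catenin (CTNNB1), and untransfected cells given 300 ng/ml of FZD8_CRD, each of them without or with 200 ng/ml of Wnt3a. Treatment lasted 72 h, in medium without serum, and both recombinant proteins were of mouse sequence. FZD8_CRD is the Wnt-binding part of the receptor Frizzled-8 made as a soluble protein.

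WNT ligands are lipid-modified glycoproteins that leave the cell with the help of PORCN and WLS and bind Frizzled receptors on the same or on nearby cells. Some of them, such as WNT3, WNT6, WNT7B and WNT10A, are mostly known for stabilising β-catenin, which then acts with TCF/LEF factors on target genes. Others, such as WNT4, WNT5A, WNT5B and WNT11, are better known for signals that bypass β-catenin and act on cell polarity and movement. In the liver, Wnt signals are best known for the division of labour between hepatocytes of different zones and for growth after injury.

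Levels are given as log2 of the background-subtracted spot intensity over the array's 75th percentile, so that a difference of 1 is a doubling, and in the order of replicates 1, 2 and 3. A probe was read as detected on an array where the scanner software marked its spots as well above background. A gene was tested if a probe for it was detected on all 3 arrays of at least 1 condition, which left 24643 genes, and 7 of the 10 WNT genes. Changes were tested two-sided with limma, and a change was called at a Benjamini-Hochberg adjusted p under 0.05 over all tested genes. Replicates 1, 2 and 3 of every condition also lay on slides 1, 2 and 3, so every difference was also taken within each slide, and again with the slide as a block. Where groups of arrays are said not to overlap, this is a description. The share of all tested genes without such overlap was not counted in any comparison. Each condition had the same position on every slide, and an effect of position and an effect of condition cannot be told apart.

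Some arrays did not sit with their own condition. Over all tested genes, 6 of the 24 arrays correlated better with the mean of another condition than with that of their own, although the correlation with the own mean was at least 0.989. Replicate 3 of FZD8_CRD correlated at 0.989 with its own condition and at 0.996 with FZD8_CRD plus Wnt3a. Among the arrays without transfection, replicate 3 of the untreated cells was closest to Wnt3a alone (0.994 against 0.991), replicate 3 of Wnt3a alone was closest to the untreated cells (0.993 against 0.990), and replicate 2 of Wnt3a alone was closest to control siRNA plus Wnt3a (0.994 against 0.990). The remaining 2 arrays were closest to the same siRNA without Wnt3a, replicate 3 of β-catenin siRNA plus Wnt3a (0.995 against 0.993) and, close to a tie, replicate 1 of control siRNA plus Wnt3a (0.99489 against 0.99484). The labels were followed throughout, and whether samples had been exchanged was not tested apart from the check that follows. For RNF43, a target of the pathway, the arrays of Wnt3a alone were at 1.61 to 1.73 and the untreated ones at 0.84 to 1.09, and those of FZD8_CRD were at 0.38 to 0.50 with Wnt3a and at -0.44 to -0.24 without it, so that for this gene every array of these conditions lay with its label. RNF43 was chosen after its values were seen. The other feedback targets called for Wnt3a with FZD8_CRD spread more among the arrays of FZD8_CRD without Wnt3a. The SD there was 0.78 for TCF7, 1.11 for APCDD1 and 0.47 for DKK1, against 0.10 for RNF43. Whether each of their arrays lay with its label was not checked. Results that rest on 1 of the 6 arrays above are given below with and without it. Of 84 tested changes of the WNT genes (7 genes in 12 comparisons) 18 were called, and 3 of them were of WNT5B, which had to differ for a reason given below. Of the other 15, 9 were still called without each array in turn and 7 without each slide. The share of all tested genes called ran from 0.0162% to 41.9% over the 12 comparisons, and it is given below for each of them. These shares are from the fit without the slide as a block. No share is given for the fit with the block, so counts with the block cannot be set against them.

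The choice of scale also matters in these arrays. When the arrays were scaled to 7 spike-in probes in place of the 75th percentile, the median change of all genes moved from 0.01 to -0.38 for Wnt3a alone, from 0.02 to 0.19 for Wnt3a after control siRNA and from 0.03 to -0.10 for Wnt3a after β-catenin siRNA. It moved from -0.03 to -0.31 for the control siRNA without Wnt3a, from -0.02 to 0.25 with Wnt3a, from -0.01 to -0.22 for the β-catenin siRNA with Wnt3a and from -0.09 to -0.47 for FZD8_CRD without Wnt3a. All changes below are relative to the 75th percentile, and none of the 18 called changes of the WNT genes turned its direction under the other scale.

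Whether HepaRG cells make all 10 ligands was checked on the detection of their probes. For WNT3, WNT5A, WNT6, WNT7B and WNT11, 5 of the 10 genes, each of the 24 arrays had a probe well above background. WNT10A, a ligand known from tooth and hair development, was detected on 17 arrays, and at least once in every condition. WNT5B was detected on 3 arrays, which were the 3 arrays of control siRNA plus Wnt3a. WNT2B was detected on 2 arrays, WNT4 on 1 and WNT9A on none, so RNA of these 3 genes was not shown to be present in the culture as a whole.

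**Figure D1:**
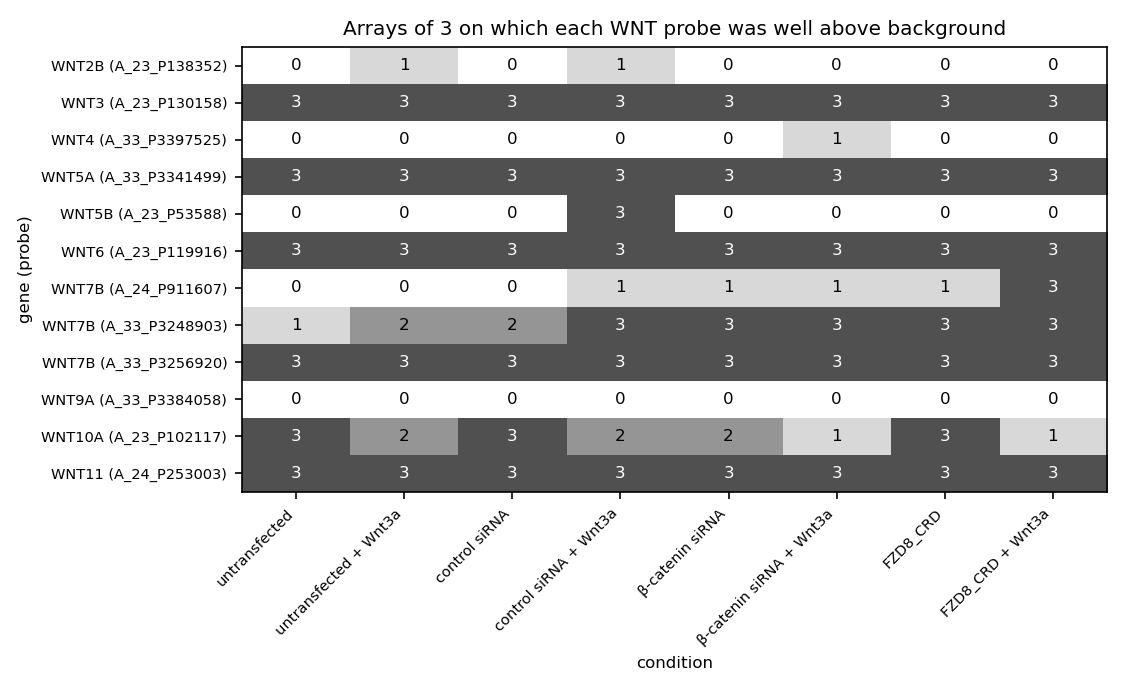
Number of arrays, of 3 per condition, on which each of the 12 WNT probes (rows) was well above background in each of the 8 conditions (columns). Probes of WNT3, WNT5A, WNT6 and WNT11 and 1 probe of WNT7B are at 3 in every column, and the probe of WNT9A is at 0 in every column.

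The plot of detection shows the 3 untested genes as nearly empty rows. WNT9A had a highest intensity of 4.20 units over the 24 arrays. WNT4 had 33.5 units on replicate 3 of β-catenin siRNA plus Wnt3a and was not well above background elsewhere. WNT2B had 46.1 units on replicate 3 of Wnt3a alone and on replicate 1 of control siRNA plus Wnt3a, while the other 2 arrays of each of these conditions were not well above background. Under the scanner's weaker mark for a positive and significant signal, WNT2B passed on 19 arrays, WNT5B on 22, WNT4 on 7 and WNT9A on 5.

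The ligands known for β-catenin signals come first. WNT3, which is needed to set up the body axis in the mouse embryo, stood between -0.53 and 0.74. Without Wnt3a, the 3 arrays gave 0.74, 0.44 and 0.27 in untreated cells, 0.43, 0.35 and 0.54 with control siRNA, -0.26, -0.27 and -0.44 with β-catenin siRNA, and 0.62, 0.60 and 0.50 with FZD8_CRD. With Wnt3a they gave 0.53, 0.61 and 0.07 in untransfected cells, 0.42, 0.26 and 0.08 with control siRNA, -0.21, -0.50 and -0.53 with β-catenin siRNA, and 0.27, 0.45 and 0.08 with FZD8_CRD. All 6 arrays of β-catenin siRNA were low and lay below the other 18 arrays. Among those, each condition overlapped the next in order of mean. The arrays of FZD8_CRD lay above all arrays of FZD8_CRD plus Wnt3a and of control siRNA plus Wnt3a. Ordered by mean, the conditions ran from FZD8_CRD (0.57 ± 0.07, SD, n = 3) down to β-catenin siRNA plus Wnt3a (-0.41 ± 0.18, SD, n = 3), and the only neighbours in that order without overlap were control siRNA plus Wnt3a (0.25 ± 0.17) and β-catenin siRNA (-0.32 ± 0.10).

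WNT6, a ligand of epithelia, was well above background throughout, with intensities from 997 to 3620 units. Without Wnt3a its level was 2.19, 2.20 and 1.66 in untreated cells, 1.85, 1.91 and 1.37 with control siRNA, 1.12, 1.04 and 1.00 with β-catenin siRNA, and 1.86, 1.63 and 0.52 with FZD8_CRD. In the presence of Wnt3a it was 2.05, 2.02 and 2.05 in untransfected cells, 2.11, 1.99 and 2.00 with control siRNA, 0.51, 0.53 and 0.58 with β-catenin siRNA, and 0.95, 0.91 and 0.61 with FZD8_CRD. The arrays of β-catenin siRNA plus Wnt3a were the lowest of the 24 together with replicate 3 of FZD8_CRD, which lay far below the other 2 arrays of its condition and next to those of FZD8_CRD plus Wnt3a. By mean, Wnt3a alone (2.04 ± 0.02), control siRNA plus Wnt3a (2.03 ± 0.07), untreated cells (2.02 ± 0.31), control siRNA (1.71 ± 0.30), FZD8_CRD (1.34 ± 0.72) and β-catenin siRNA (1.06 ± 0.06) each overlapped the next. FZD8_CRD plus Wnt3a (0.83 ± 0.18) and β-catenin siRNA plus Wnt3a (0.54 ± 0.04) followed, each below the one before it without overlap.

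Promoter sequences are shown for WNT3 and WNT6, since these are the members on the β-catenin side that fell with the β-catenin siRNA. They are the 250 bases before the start of the gene from RefSeq, build GRCh38.p14, at chr17:46818693-46818942 on the minus strand for WNT3 and at chr2:218859555-218859804 on the plus strand for WNT6, written 5′ to 3′. Capitals mark the letters of a GC box, GGGCGG, on either strand.

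WNT3: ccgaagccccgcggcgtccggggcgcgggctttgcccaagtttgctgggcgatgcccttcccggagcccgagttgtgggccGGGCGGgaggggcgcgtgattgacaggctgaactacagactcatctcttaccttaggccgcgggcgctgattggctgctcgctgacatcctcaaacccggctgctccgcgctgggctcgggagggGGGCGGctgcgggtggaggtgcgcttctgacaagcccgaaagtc

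WNT6: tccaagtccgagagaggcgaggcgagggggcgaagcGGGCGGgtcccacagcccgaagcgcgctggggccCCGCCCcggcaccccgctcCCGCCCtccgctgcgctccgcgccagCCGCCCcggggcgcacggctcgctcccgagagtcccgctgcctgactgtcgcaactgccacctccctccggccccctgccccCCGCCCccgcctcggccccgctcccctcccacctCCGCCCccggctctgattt

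The WNT3 window held 2 such matches and the WNT6 window 6, and 42.6% of 35116 promoter windows of this length held at least 1. A search of both strands for the TCF/LEF letters CTTTGWW, where W is A or T, found them in 12% of all windows and in none of the windows of the 8 members that had an entry, which says only that these letters are not in these windows. In the RefSeq gene table of the same build, WNT6 and WNT10A lie next to each other and overlap on chromosome 2, and WNT3 is followed by WNT9B on chromosome 17.

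WNT7B, a ligand known from lung, kidney and blood vessel development, had the widest range of condition means of the 7 tested genes, 3.14 on the log2 scale. Of its 3 probes, A_33_P3256920 was detected on all 24 arrays and stands for the gene, A_33_P3248903 was detected on 20 and A_24_P911607 on 7. Without Wnt3a its intensity was 24.2, 30.7 and 27.5 units in untreated cells, 31.6, 44.9 and 28.1 with control siRNA, 78.7, 72.6 and 57.7 with β-catenin siRNA, and 55.6, 51.5 and 187 with FZD8_CRD. The intensity with Wnt3a was 52.4, 90.0 and 36.3 units in untransfected cells, 108, 88.1 and 75.2 with control siRNA, 164, 88.8 and 68.5 with β-catenin siRNA, and 317, 226 and 192 with FZD8_CRD. Untreated cells were lowest, FZD8_CRD plus Wnt3a was highest, and replicate 3 of FZD8_CRD was again the array apart, close to the arrays of FZD8_CRD plus Wnt3a. On the log2 scale the mean of FZD8_CRD plus Wnt3a (-1.67 ± 0.34, SD, n = 3) stood above that of β-catenin siRNA plus Wnt3a (-2.87 ± 0.52) without overlap. The other conditions followed as a chain in which each overlapped the next, from control siRNA plus Wnt3a (-3.09 ± 0.26), FZD8_CRD (-3.34 ± 1.11), β-catenin siRNA (-3.62 ± 0.19) and Wnt3a alone (-3.69 ± 0.66) to control siRNA (-4.43 ± 0.33) and untreated cells (-4.81 ± 0.13).

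**Figure D2:**
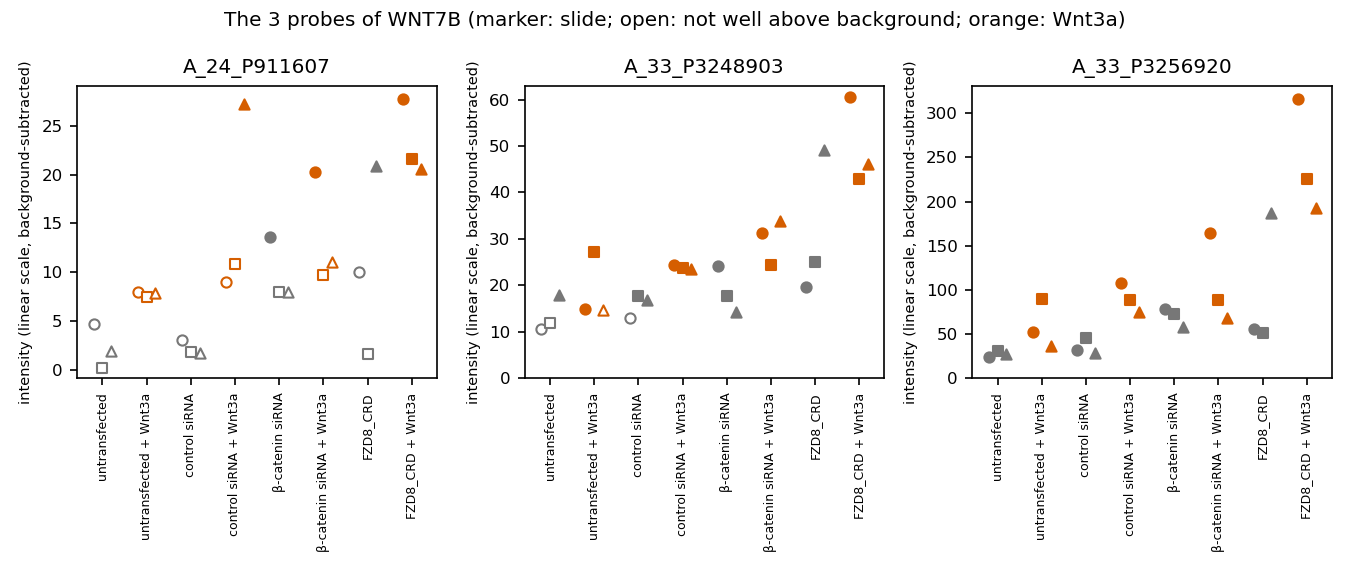
Background-subtracted intensity (linear scale) of the 3 WNT7B probes on each of the 24 arrays, by condition. FZD8_CRD plus Wnt3a has the highest condition mean for each probe, and replicate 3 of FZD8_CRD lies above the other 2 arrays of its condition for each probe.

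The plot of the WNT7B probes sets each probe on its own scale, since probes differ in brightness for reasons of sequence. A_33_P3248903 was called for FZD8_CRD with Wnt3a (1.36, limma adjusted p = 0.00151), where it was above background on 2 of the 3 arrays of Wnt3a alone. Without Wnt3a it was at 1.04 (adjusted p = 0.00953), but 1 of the 3 untreated arrays was above background, and the difference of means was 0.62 without replicate 3 of FZD8_CRD. A_24_P911607 was well above background on all 3 arrays of FZD8_CRD plus Wnt3a and of no other condition. It passed the filter only there and so had to differ, and no support is drawn from its call in that comparison (1.09, adjusted p = 0.00698). Neither of these 2 probes was called for Wnt3a in the presence of FZD8_CRD, where their changes were 0.88 (adjusted p = 0.086) and 0.79 (adjusted p = 0.124).

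WNT10A is measured by 10 spots and stayed close to the floor below which signals were set equal, -6.13. Its intensities ran from 9.89 to 25.8 units, its condition means lay within 0.60 of each other, and every condition overlapped the next in order. Untreated cells had the highest mean (-5.30 ± 0.37, SD, n = 3) and β-catenin siRNA the lowest (-5.90 ± 0.24).

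Among the ligands known for signals that bypass β-catenin, WNT11, which directs cell movements in the early embryo, was highest in the condition where WNT7B was lowest and lowest where WNT7B was highest. Without Wnt3a its level was -0.13, 0.32 and -0.20 in untreated cells, -0.51, -0.54 and -0.45 with control siRNA, -0.85, -1.05 and -0.84 with β-catenin siRNA, and -1.36, -1.63 and -2.32 with FZD8_CRD. Cultures with Wnt3a had -0.51, -1.42 and -0.41 in untransfected cells, -1.37, -1.74 and -1.33 with control siRNA, -2.02, -1.76 and -1.40 with β-catenin siRNA, and -2.88, -2.97 and -2.85 with FZD8_CRD. Untreated cells were highest and the 3 arrays of FZD8_CRD plus Wnt3a lowest, each without overlap with the next condition. Between them, control siRNA (-0.50 ± 0.05, SD, n = 3), Wnt3a alone (-0.78 ± 0.56) and β-catenin siRNA (-0.92 ± 0.12) each overlapped the next, as did control siRNA plus Wnt3a (-1.48 ± 0.23), β-catenin siRNA plus Wnt3a (-1.73 ± 0.31) and FZD8_CRD (-1.77 ± 0.50). Replicate 2 of Wnt3a alone lay among the arrays of these last conditions. In each of the 4 backgrounds, all 3 arrays with Wnt3a lay below all 3 without it. The range of condition means was 2.90.

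WNT5A, a ligand of the receptor ROR2, had intensities from 1138 to 3176 units. Without Wnt3a its level was 0.70, 0.60 and 0.56 in untreated cells, 0.91, 0.97 and 1.03 with control siRNA, 0.89, 0.96 and 0.96 with β-catenin siRNA, and 1.80, 1.98 and 0.96 with FZD8_CRD. On the arrays with Wnt3a it was 1.14, 1.97 and 1.13 in untransfected cells, 1.60, 1.88 and 1.75 with control siRNA, 1.21, 0.99 and 0.88 with β-catenin siRNA, and 1.60, 1.68 and 1.504 with FZD8_CRD. The untreated arrays lay below all others, replicate 2 of Wnt3a alone lay well above the other 2 of its condition, and replicate 3 of FZD8_CRD lay well below the other 2 of its own. The condition means ran from control siRNA plus Wnt3a (1.74 ± 0.14, SD, n = 3) to untreated cells (0.62 ± 0.07), and apart from the last step each condition overlapped the next.

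WNT5B, the closest relative of WNT5A, was at -4.76, -5.00 and -5.41 with control siRNA plus Wnt3a, from 28.5, 23.2 and 18.1 units. On the other 21 arrays it was not well above background. It passed the filter only through that 1 condition and so had to differ from the others, and no support is drawn from its being counted among the tested genes.

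**Figure D3:**
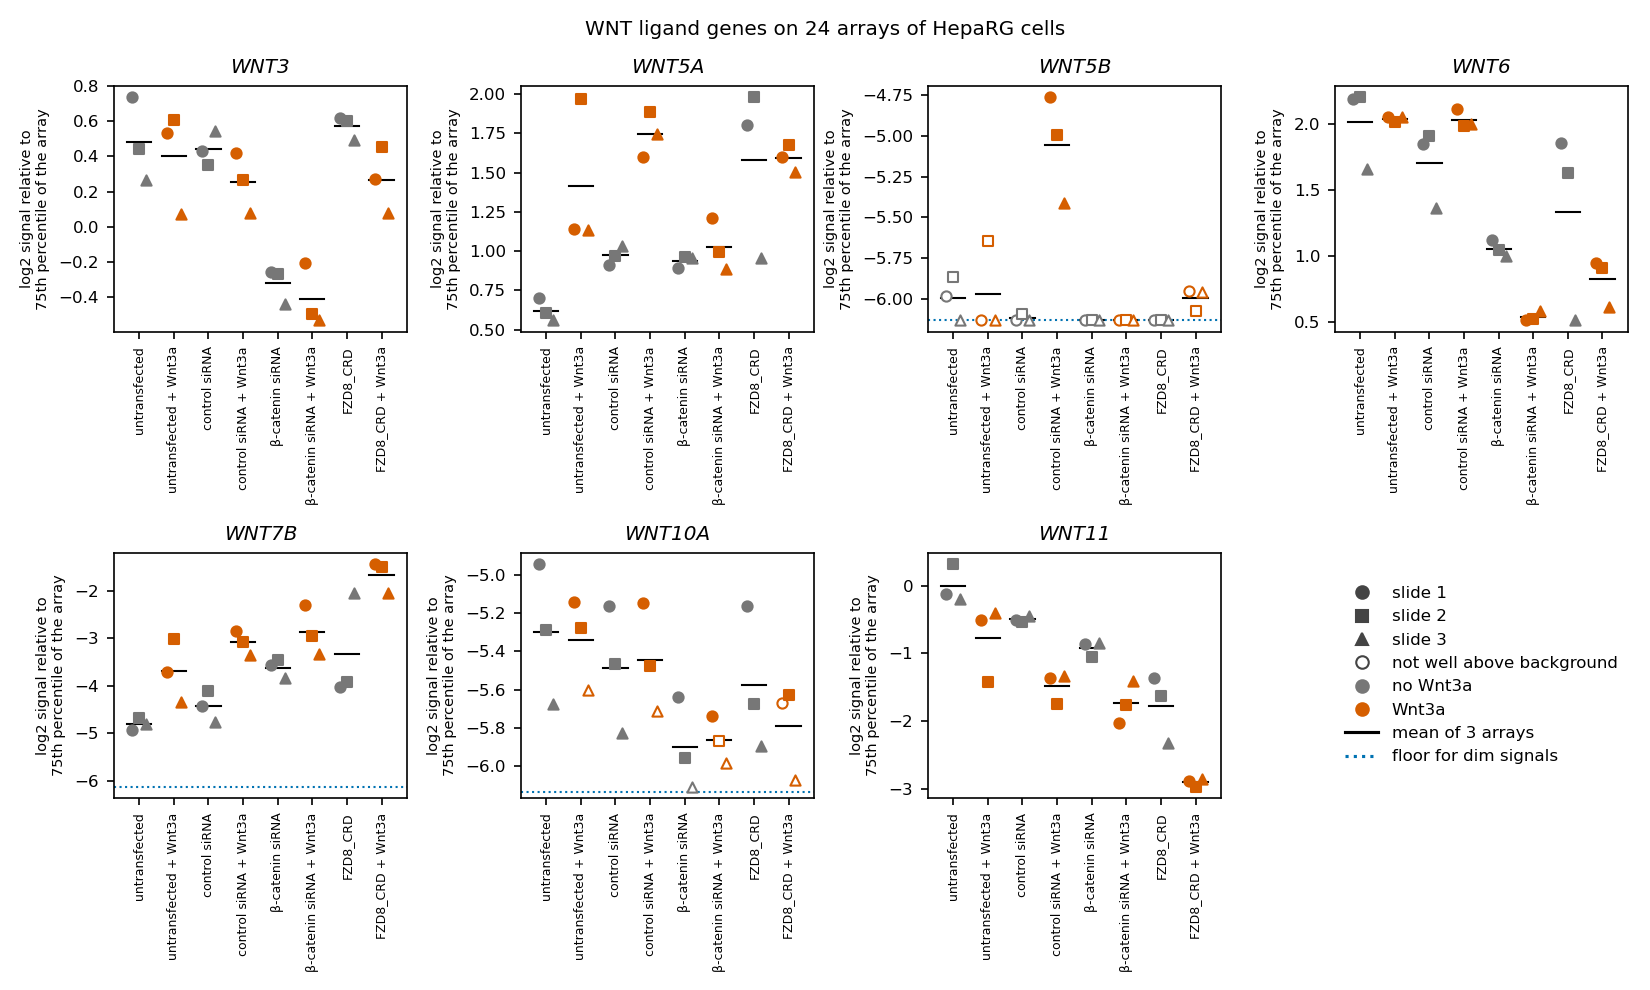
Level of the 7 tested WNT genes on each array (log2 of intensity relative to the 75th percentile of the array) in the 8 conditions, with Wnt3a in orange. Marker shapes stand for the slide, open markers for arrays not well above background, bars for condition means and the dotted line for the floor at -6.13.

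The plot of levels by array shows WNT6 and WNT3 low in the β-catenin siRNA columns, and WNT7B and WNT11 at opposite ends in FZD8_CRD plus Wnt3a. These are cultures measured in bulk, so fewer cells of a type and less RNA per cell cannot be told apart.

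Wnt3a without transfection asks how the ligand genes respond when the pathway is driven from outside. WNT5A was the member that rose, 1.73-fold, with all 3 treated arrays above all 3 untreated ones. It was 1 of 7 tested WNT genes called, beside 5.6% of all tested genes. Its log2 change was 0.79 (95% CI 0.36 to 1.22), 0.44, 1.36 and 0.57 within slides 1, 2 and 3, with a limma adjusted p of 0.0302, of 0.0122 with the slide as a block, and between 0.00764 and 0.853 over all alternatives. The call was lost when scaled to the spike-ins (0.40), without a filter and with only the conditions compared (0.79 in both). It also rests on single arrays and was lost without replicate 2 of Wnt3a alone (0.52), without replicate 1 (0.83) or replicate 2 (0.78) of the untreated cells. WNT7B (1.12, unadjusted p = 0.0119, adjusted p = 0.106, or 0.0826 with the slide as a block) and WNT11 (-0.77, unadjusted p = 0.00445, adjusted p = 0.0642) had groups without overlap but were not called. With the slide as a block WNT11 was called (adjusted p = 0.0467; 0.011 to 1 over all alternatives), and its differences within slides were -0.38, -1.74 and -0.21. Both genes were called without replicate 3 of Wnt3a alone (WNT7B 1.44, WNT11 -0.96), and WNT11 also without replicate 3 of the untreated cells (-0.87). Replicate 2 of Wnt3a alone lay farthest from the untreated arrays for both (WNT7B -3.03, WNT11 -1.42), so both changes are smaller without it. Within slides the changes of WNT7B were 1.22, 1.65 and 0.47. The changes of WNT6 and WNT3 were 0.02 (95% CI -0.45 to 0.50) and -0.08, neither of them called.

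Other genes of the pathway were measured in the same comparison. Of 11 tested feedback targets of Wnt signals, 5 rose and 0 fell, among them the transcription factor TCF7 (1.68, limma adjusted p = 0.00108), the ubiquitin ligase RNF43 (0.73, adjusted p = 0.00054) and AXIN2 (0.37, adjusted p = 0.0453), the last of which turned slightly negative when scaled to the spike-ins (-0.0266). Of 16 tested receptors and partners of β-catenin-independent signals, 5 rose and 0 fell, including PRICKLE2 (0.78, adjusted p = 0.013) and FZD6 (0.59, adjusted p = 0.00107), while RYK, also among the 5, turned to -0.0816 when scaled to the spike-ins. Of 15 tested genes for secretion and extracellular handling of Wnt proteins 0 were called (1 with the slide as a block). An unadjusted p under 0.05 was found for 3 of the 15, beside 5233 of all 24643 tested genes. Of 6 tested fibroblast and myofibroblast markers 3 rose and 0 fell, with COL1A1 at 1.86 and COL1A2 at 1.14, and ACTA2, the third, turned to -0.0816 when scaled to the spike-ins.

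Control siRNA was used to carry the same question into transfected cells. WNT11 fell to 50.6% of its level without Wnt3a. It was the 1 gene called of 6 tested other than WNT5B, beside 2.11% of all tested genes. WNT5B had to differ for the reason given above and is not counted. It was at least 2.01-fold higher, where the bound sets the mean of the arrays above background against the lowest signal that counts as above background in the other condition. For WNT11 the log2 change was -0.98 (95% CI -1.49 to -0.48), -0.86, -1.20 and -0.88 within slides, with a limma adjusted p of 0.0374, of 0.0288 with the slide as a block and of 0.0125 to 0.699 over all alternatives. The call was lost when any 1 of the 6 arrays was left out, at -0.99, -1.004 and -0.96 without control siRNA replicates 1, 2 and 3, and at -1.04, -0.85 and -1.06 without control siRNA plus Wnt3a replicates 1, 2 and 3. The change of WNT5A was 0.77 (95% CI 0.34 to 1.20; 0.69, 0.92 and 0.71 within slides), with groups that did not overlap, and fell just short of the threshold (adjusted p = 0.0559). It was called with the slide as a block (adjusted p = 0.0243; 0.00894 to 0.465 over all alternatives). WNT7B was at 1.34 (unadjusted p = 0.00341, adjusted p = 0.0894, or 0.0693 with the slide as a block), also without overlap of the groups, and was not called.

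Among the pathway lists, 5 of 11 feedback targets rose and 0 fell, with TCF7 at 1.40 (limma adjusted p = 0.00779), RNF43 at 1.02 and AXIN2 at 0.60. Of 16 receptors and partners 2 rose, PRICKLE2 (0.84, adjusted p = 0.0161) and FZD6 (0.42, adjusted p = 0.0176). Of 15 secretion genes 1 rose, TRABD2B (0.71, adjusted p = 0.0063), a protease that cuts Wnt proteins. Of 6 fibroblast markers 2 rose, COL1A1 (2.19) and COL1A2 (1.80).

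**Figure D4:**
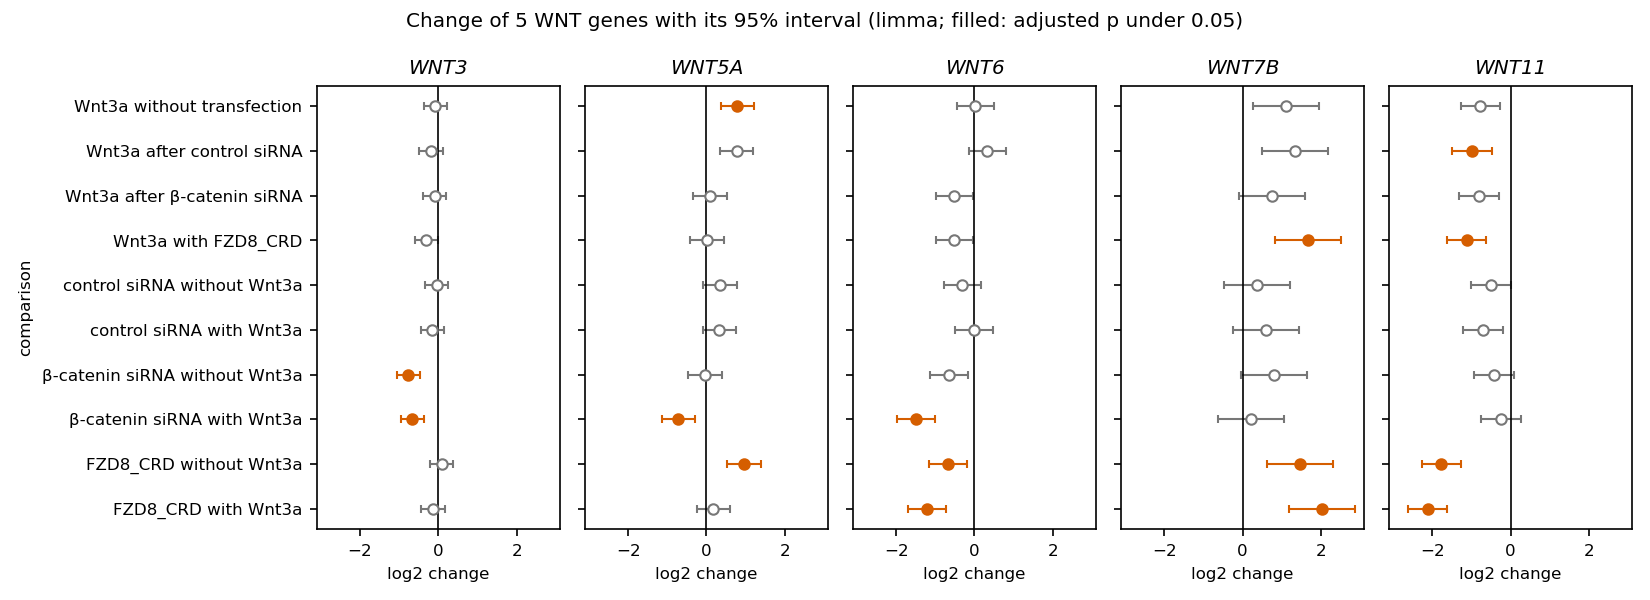
Change of WNT3, WNT5A, WNT6, WNT7B and WNT11 in 10 comparisons (log2, points with 95% confidence intervals), with filled points where the adjusted p was under 0.05. WNT7B lies to the right and WNT11 to the left of 0 in the comparisons of Wnt3a and of FZD8_CRD, and WNT3 and WNT6 lie to the left in those of β-catenin siRNA.

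The plot of changes puts these 2 comparisons beside the next 8. Wnt3a after β-catenin siRNA asks what is left of the response when β-catenin is low, and in the cells with this siRNA CTNNB1 itself fell by 3.03 on the log2 scale without Wnt3a (from 3.41 to 0.38, limma adjusted p = 1.17e-09) and by 3.02 with Wnt3a (from 3.56 to 0.54, adjusted p = 7.75e-10). In this background 0 of 7 WNT genes were called, beside 0.0406% of all tested genes. The unadjusted p was under 0.05 for 2574 of all 24643 tested genes and for 2 of the 7 WNT genes. These were WNT11 (-0.81, unadjusted p = 0.00311, adjusted p = 0.245, or 0.145 with the slide as a block), with differences within slides of -1.17, -0.71 and -0.56, and WNT6 (-0.52, 95% CI -0.99 to -0.04, unadjusted p = 0.0355, adjusted p = 0.434, or 0.209 with the slide as a block), with -0.61, -0.52 and -0.42. In both, the 3 arrays with Wnt3a lay below the 3 without it. WNT7B was at 0.76 (95% CI -0.09 to 1.60, adjusted p = 0.545), with 1.26, 0.51 and 0.50 within slides and the 3 arrays with Wnt3a above the 3 without it. WNT5A was at 0.09 (95% CI -0.34 to 0.52), and its groups overlapped. Of the feedback targets, the receptors and the secretion genes 0 were called by limma, while 1 of 11, 3 of 16 and 0 of 15 had an unadjusted p under 0.05.

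Whether the response to Wnt3a differed between the siRNAs was tested as a difference of differences. Of the 6 tested WNT genes other than WNT5B 0 were called, beside 0.0162% of all tested genes. An unadjusted p under 0.05 was found for 2 of the 6, beside 823 of all 24643 tested genes. For WNT6 the difference was -0.84 (95% CI -1.52 to -0.17, unadjusted p = 0.0172, limma adjusted p = 1, or 0.536 with the slide as a block), and -0.87, -0.60 and -1.06 within slides. For WNT5A it was -0.68 (95% CI -1.29 to -0.07, unadjusted p = 0.0296, adjusted p = 1, or 0.771 with the slide as a block). WNT5B was not called either, and its difference rests on the floor in 3 of the 4 conditions. For WNT7B and WNT11 it was -0.59 and 0.17, each with an adjusted p of 1. Of the 11 feedback targets 1 was called, RNF43, with a difference of -1.23, and 2 with the slide as a block. No difference between the siRNAs in the response of a WNT gene is therefore shown, although WNT5A was at 0.77 with 1 siRNA and at 0.09 with the other.

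**Figure D5:**
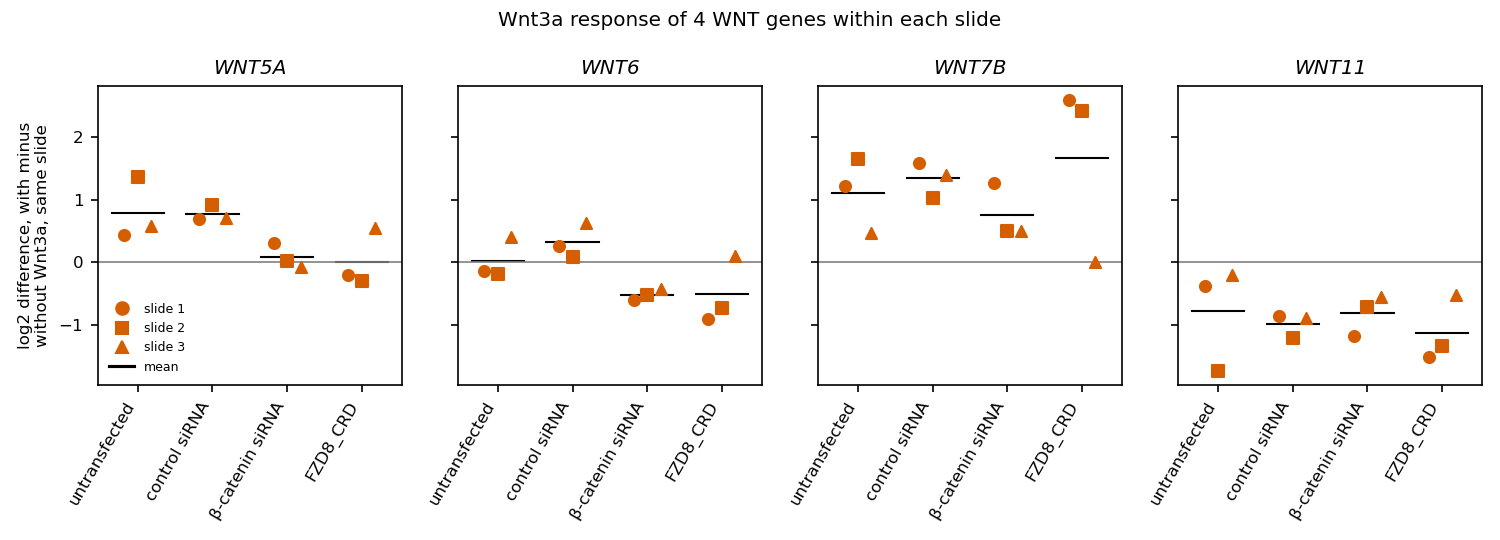
Difference with and without Wnt3a within each slide (log2, 1 point per slide) for WNT5A, WNT6, WNT7B and WNT11 in the 4 backgrounds. For WNT11 all 12 differences are negative, and for WNT6 the differences after β-catenin siRNA are all negative and those after control siRNA all positive.

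The plot of responses within slides shows how far the 3 slides spread in each background, and it shows slide 3 apart for WNT5A, WNT6 and WNT7B in cells with FZD8_CRD. That slide holds the array of FZD8_CRD that correlated with the other condition. Wnt3a in the presence of FZD8_CRD asks whether the soluble domain blocks the response. WNT11 fell to 45.8% of its level with FZD8_CRD alone, with no overlap of the groups, and WNT7B rose 3.19-fold, with 1 array of FZD8_CRD alone inside the range of the other group. These were 2 of 7 tested genes, beside 8.29% of all tested genes.

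For WNT11 the log2 change was -1.13 (95% CI -1.63 to -0.62), -1.52, -1.34 and -0.52 within slides, with a limma adjusted p of 0.00726, of 0.00635 with the slide as a block and of 0.000259 to 0.51 over all alternatives. For WNT7B it was 1.67 (95% CI 0.83 to 2.51), 2.60 and 2.42 within slides 1 and 2 and -0.0002 within slide 3, with an adjusted p of 0.0142, of 0.0122 with the slide as a block and of 3.69e-05 to 0.635 over all alternatives. Without the third array of FZD8_CRD the change of WNT7B was 2.31 and that of WNT11 -1.40. The WNT11 call was lost without replicate 1 (-0.92) or replicate 2 (-1.05) of FZD8_CRD. The WNT7B call was lost without replicate 1 (1.33) or 2 (1.38) of FZD8_CRD and without replicate 1 (1.56) or 2 (1.59) of FZD8_CRD plus Wnt3a. WNT3 was at -0.30 (unadjusted p = 0.0453, limma adjusted p = 0.229, or 0.0723 with the slide as a block), with groups that did not overlap. It was not called, and its differences within slides were -0.34, -0.15 and -0.42. WNT6 was not called at -0.51 (adjusted p = 0.204, or 0.0798 with the slide as a block; -0.91, -0.72 and 0.10 within slides). Without the third array of FZD8_CRD it was called at -0.92 (adjusted p = 0.000245; 2.14e-05 to 1 over all alternatives).

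The test of whether the response to Wnt3a differed with FZD8_CRD called 0 of 7 WNT genes, beside 0.073% of all tested genes. The unadjusted p was under 0.05 for 3129 of all 24643 tested genes and for 1 of 7 WNT genes. That gene was WNT5A, with a difference of -0.78 (95% CI -1.39 to -0.17, unadjusted p = 0.0145, limma adjusted p = 0.248, or 0.128 with the slide as a block) and -0.64, -1.67 and -0.03 within slides. Without replicate 3 of FZD8_CRD it was -1.09 and called (adjusted p = 0.00572; 0.00572 to 1 over all alternatives), as was WNT6, at -0.94 without that array (adjusted p = 0.00749) and -0.54 with it. WNT11 and WNT7B had differences of -0.35 and 0.56 that were not called with or without it. Among the other lists in the presence of FZD8_CRD, 2 of 11 feedback targets rose with Wnt3a and 2 fell, TCF7 being 1.64 higher (adjusted p = 0.00109) and DKK1 0.88 lower, at -0.88. Of 15 secretion genes 2 rose and 3 fell, GPC6 being at -1.04 (adjusted p = 0.0118), and of 16 receptors and partners 2 rose and 1 fell.

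Control siRNA against no transfection shows what transfection itself goes with, and it shares its control arrays with the comparisons of Wnt3a and FZD8_CRD in untransfected cells. Without Wnt3a 0 of 7 WNT genes were called, beside 22.3% of all tested genes. An unadjusted p under 0.05 was found for 0 of 7, beside 8183 of all 24643 tested genes. WNT11 was at -0.50 and WNT5A at 0.35, with groups that did not overlap, at limma adjusted p-values of 0.157 and 0.254. With Wnt3a 0 of 6 other than WNT5B were called, beside 9.04%. An unadjusted p under 0.05 was found for 1 of 6, beside 5637 of all 24643 tested genes. WNT5B, which had to differ there too, was at least 1.69-fold higher after control siRNA. WNT11 was at -0.71 (adjusted p = 0.0734) and WNT5A at 0.33 (adjusted p = 0.375) with Wnt3a, and both were called when replicate 2 of Wnt3a alone was left out, at -1.03 and 0.61. Hepatocyte markers moved with transfection: 7 of 7 fell without Wnt3a and 4 of 7 with it. Of 16 receptors and partners 5 rose and 1 fell without Wnt3a (10 called with the slide as a block), FZD6 and RYK turning slightly negative when scaled to the spike-ins (-0.0308 and -0.0794), and 0 of 16 were called with Wnt3a (1 with an unadjusted p under 0.05). Of 15 secretion genes 2 rose and 3 fell without Wnt3a and 1 rose with it, and of 11 feedback targets 1 rose and 2 fell without it and 1 rose with it. With the slide as a block and with Wnt3a, 2 secretion genes and 2 feedback targets were called, and 0 receptors and partners. PORCN, which attaches the lipid to Wnt proteins, rose by 0.78 without Wnt3a (adjusted p = 0.00277), and WNT10B, from the rest of the family, by 0.58 (adjusted p = 0.0375).

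The β-catenin siRNA against the control siRNA asks which ligand genes need β-catenin at the RNA level. Without Wnt3a WNT3 fell to 58.9% of its level with control siRNA, and with Wnt3a WNT3 fell to 63.0%, WNT5A to 60.9% and WNT6 to 35.5%. In each of these changes all 3 arrays of the β-catenin siRNA lay below all 3 of the control siRNA. Without Wnt3a 1 of 7 was called, beside 10.6% of all tested genes, and with Wnt3a 3 of 6 other than WNT5B, beside 10.6%. WNT5B had to differ with Wnt3a and was at least 1.74-fold lower.

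For WNT3 the log2 change was -0.76 without Wnt3a (95% CI -1.06 to -0.47; -0.69, -0.62 and -0.98 within slides), with a limma adjusted p of 0.00144, of 0.00012 with the slide as a block and of 0.00012 to 0.412 over all alternatives. With Wnt3a it was -0.67 (95% CI -0.96 to -0.37; -0.63, -0.76 and -0.61 within slides), with an adjusted p of 0.00363, of 0.000323 with the slide as a block and of 0.000323 to 0.16 over all alternatives. The fall was called at both levels of Wnt3a and without each single array, and it was not called when scaled to the spike-ins (-0.68 and -0.88).

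WNT6 was at -0.65 without Wnt3a (95% CI -1.13 to -0.17; -0.73, -0.86 and -0.36 within slides), with groups that did not overlap and a limma adjusted p of 0.0769. With the slide as a block it was called there (adjusted p = 0.0225; 0.000136 to 1 over all alternatives). With Wnt3a the change was -1.49 (95% CI -1.97 to -1.02; -1.60, -1.46 and -1.42 within slides), with an adjusted p of 0.000185, of 2.42e-05 with the slide as a block and at most 0.0409 over all alternatives. This call was kept under every alternative tried. WNT5A was at -0.03 without Wnt3a (adjusted p = 0.972) and at -0.72 with it (95% CI -1.14 to -0.29; -0.39, -0.89 and -0.87 within slides), with an adjusted p of 0.0282, of 0.0119 with the slide as a block and of 0.0119 to 0.18 over all alternatives. The WNT5A call was lost without replicate 2 (-0.65) or 3 (-0.71) of control siRNA plus Wnt3a and without replicate 2 (-0.70) or 3 (-0.64) of β-catenin siRNA plus Wnt3a. WNT7B and WNT11 were not called at either level of Wnt3a, with WNT7B at 0.81 and 0.22 and WNT11 at -0.42 and -0.25. WNT10A was called only with the slide as a block, at -0.41 without Wnt3a (adjusted p = 0.049, against 0.351 without the block) and -0.42 with it (adjusted p = 0.0486, against 0.363). Without Wnt3a it was well above background on 2 of 3 arrays of β-catenin siRNA and on 3 of 3 of control siRNA. With Wnt3a these numbers were 1 and 2, so the sizes of its changes are not exact.

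Genes that act next to the ligands were called in both directions with this siRNA, beside 10.6% of all tested genes at each level of Wnt3a. PORCN fell by 1.04 without Wnt3a (from 4.01 to 2.97, limma adjusted p = 0.000495) and by 1.11 with it (from 4.26 to 3.16, adjusted p = 0.000207). TRABD2A, a protease that cuts Wnt proteins, fell by 1.20 (adjusted p = 1.39e-05) and by 0.80 (adjusted p = 0.000576). RECK rose at both levels (0.48 and 0.45), and GPC6 rose with Wnt3a (0.77). In all, 1 of 15 secretion genes rose and 3 fell without Wnt3a, and 3 rose and 4 fell with it. ROR2, the receptor for WNT5A, fell by 0.68 (adjusted p = 7.57e-05) and by 0.62 (adjusted p = 0.000112), among 2 of 16 receptors and partners that fell without Wnt3a (5 called with the slide as a block) and 4 of 16 with it, where 0 rose. Of 11 feedback targets 1 rose and 5 fell without Wnt3a, and 1 rose and 7 fell with it, RNF43 falling by 1.89 with Wnt3a.

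FZD8_CRD against no addition, without Wnt3a, asks what the soluble Wnt-binding domain does to cells that get no Wnt3a. WNT11 fell to 29.3% of its level in untreated cells and WNT6 to 62.4%, while WNT7B rose 2.76-fold and WNT5A 1.94-fold. For WNT11, WNT7B and WNT5A the 3 arrays with FZD8_CRD did not overlap the 3 without it, and for WNT6 they did. These were 4 of 7 tested genes, beside 41.9% of all tested genes, so that a call here says little that is particular to the WNT genes. How many of all tested genes had groups without overlap here was not counted. With Wnt3a present, 3 of 7 were called, beside 37.2%: WNT11 fell to 23.0% of its level with Wnt3a alone and WNT6 to 43.1%, and WNT7B rose 4.07-fold, each without overlap of the groups.

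For WNT11 the log2 change was -1.77 without Wnt3a (95% CI -2.27 to -1.27; -1.24, -1.95 and -2.13 within slides), with a limma adjusted p of 9.62e-06, of 1.09e-05 with the slide as a block and of 7.86e-06 to 0.00575 over all alternatives. With Wnt3a it was -2.12 (95% CI -2.63 to -1.62; -2.38, -1.55 and -2.44 within slides), with an adjusted p of 2.78e-06, of 2.95e-06 with the slide as a block and of 3.67e-07 to 0.00356 over all alternatives. For WNT7B it was 1.47 without Wnt3a (95% CI 0.62 to 2.31; 0.90, 0.75 and 2.75 within slides), with an adjusted p of 0.00609, of 0.00574 with the slide as a block and of 0.0019 to 0.0767 over all alternatives. Without replicate 3 of FZD8_CRD this change was 0.83 and still called, while with only the conditions compared it was 1.47 and not called. With Wnt3a it was 2.02 (95% CI 1.18 to 2.86; 2.28, 1.52 and 2.28 within slides), with an adjusted p of 0.000564, of 0.000573 with the slide as a block and of 0.000164 to 0.0371 over all alternatives.

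WNT6 changed by -0.68 without Wnt3a (95% CI -1.16 to -0.20; -0.33, -0.57 and -1.14 within slides), with a limma adjusted p of 0.0216, of 0.00519 with the slide as a block and of 0.000443 to 0.195 over all alternatives. The call was lost without replicate 3 of FZD8_CRD (-0.27) and without replicate 1 or 2 of the untreated cells (-0.59 each). With Wnt3a the change was -1.22 (95% CI -1.69 to -0.74; -1.10, -1.10 and -1.44 within slides), with an adjusted p of 0.000344, of 4.85e-05 with the slide as a block and of 3.79e-06 to 0.0179 over all alternatives. WNT5A changed by 0.96 without Wnt3a (95% CI 0.53 to 1.39; 1.098, 1.38 and 0.40 within slides), with an adjusted p of 0.000873, of 0.000299 with the slide as a block and of 1.47e-05 to 0.174 over all alternatives, and was at 0.18 with it (adjusted p = 0.535). The call without Wnt3a was lost when scaled to the spike-ins, at 0.57. WNT3 was not called at either level of Wnt3a (0.09 and -0.13), and WNT10A was called with the slide as a block only, with Wnt3a present (-0.45, adjusted p = 0.0133, against 0.167 without the block). There WNT10A was well above background on 1 of 3 arrays with FZD8_CRD and on 2 of 3 without it, so the size of this change is not exact.

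Other members of the family and other cell types were read on the same arrays. Of 9 further WNT genes, WNT3A and WNT10B were detected on all 24 arrays and tested, and 5 (WNT2, WNT7A, WNT8A, WNT8B and WNT16) were on none. WNT3A was not called in any of the 12 comparisons, but with the slide as a block it was called for FZD8_CRD without Wnt3a (-0.33, adjusted p = 0.0187, against 0.285 without the block) and with it (-0.38, adjusted p = 0.00918, against 0.227). WNT10B rose after control siRNA without Wnt3a and with FZD8_CRD without and with Wnt3a, by 0.95 and 0.88 in the latter. For control siRNA with Wnt3a it was called only with the slide as a block (0.61, adjusted p = 0.0305, against 0.0557). With FZD8_CRD without Wnt3a, 3 of 15 secretion genes rose and 4 fell, and 6 of 16 receptors and partners rose and 3 fell. Of 11 feedback targets 2 rose and 4 fell. These counts stand beside 41.9% of all tested genes called. With Wnt3a present they were 5 and 5, 2 and 5, and 0 and 5, beside 37.2%. Without Wnt3a, VPS35, TRABD2A and the feedback target SP5 were higher with the 75th percentile and turned negative when scaled to the spike-ins. With the slide as a block and without Wnt3a, 12 of the 15 secretion genes were called, and no share of all genes is given for that fit.

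The cells expressed hepatocyte markers, as the label of the line implies, with all 7 tested and the probe of ALB the brightest. Their summed level, in percent of the 75th percentile, was 76372.5 to 140408 in untreated cells, 37214 to 40492 with control siRNA, 46908 to 61236 with β-catenin siRNA and 24694 to 36387 with FZD8_CRD. With Wnt3a it was 39184 to 89128, 19226 to 26732, 28167 to 48837 and 37561 to 39105 in the same order. All 7 hepatocyte markers fell with FZD8_CRD and with control siRNA, in both cases without Wnt3a, and with Wnt3a 5 fell with FZD8_CRD and ALB rose with β-catenin siRNA. In the presence of FZD8_CRD, TTR (2.62) and APOA1 (2.22) rose with Wnt3a and APOB fell (-2.15). The calls of TTR and APOA1 were lost without any 1 of those 6 arrays except replicate 3 of FZD8_CRD, at 1.91 to 2.64 and 1.60 to 2.30. The counts of markers here and below stand beside shares of all tested genes called of 41.9% and 37.2% for FZD8_CRD without and with Wnt3a, 10.6% and 10.6% for β-catenin siRNA, and 22.3% and 9.04% for control siRNA. For Wnt3a the shares were 5.6% alone, 2.11% after control siRNA, 0.0406% after β-catenin siRNA and 8.29% with FZD8_CRD. The WNT11 and WNT7B changes with FZD8_CRD stand beside these shifts, and the part of the markers in the results was not tested.

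Fibroblast and myofibroblast markers had their brightest probe in ACTA2, and THY1 was detected on 0 arrays. Their summed level was 984 to 1135 in untreated cells, 1059 to 1172 with control siRNA, 993 to 1085 with β-catenin siRNA and 1234 to 1433 with FZD8_CRD, and with Wnt3a 1429 to 1931, 1455 to 1572, 1135 to 1186 and 2109 to 2254. Beside WNT5A, 3 of 6 rose with Wnt3a alone, 2 after control siRNA, 0 after β-catenin siRNA and 4 in the presence of FZD8_CRD, with ACTA2 turning negative for Wnt3a alone and for FZD8_CRD without Wnt3a when scaled to the spike-ins. With β-catenin siRNA 2 fell without Wnt3a and 3 with it, and their part in the results for WNT5A and WNT6 was not tested. With FZD8_CRD 2 rose and 2 fell without Wnt3a, and 2 rose and 1 fell with it. After control siRNA without Wnt3a 1 rose (VIM, 0.77) and 2 fell (COL1A2, -0.99, and PDGFRA, -0.62), and with Wnt3a 0 were called.

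Of 3 tested biliary and progenitor markers, with the probe of KRT19 the brightest and EPCAM on 1 array, 1 rose (KRT19, which turned negative without Wnt3a when scaled to the spike-ins) and 1 fell with FZD8_CRD at each level of Wnt3a, and 1, SOX9, fell with β-catenin siRNA plus Wnt3a. Their summed level was 28804 to 38399 with FZD8_CRD and 34483 to 38369 with FZD8_CRD plus Wnt3a, against 21984 to 27608 in untreated cells and 23107 to 28027 with Wnt3a alone. Of 4 endothelial markers, with the probe of KDR the brightest, 1 fell with FZD8_CRD at each level of Wnt3a, with a sum of 95.9 to 184 against 345 to 420 without Wnt3a and of 76.3 to 91.4 against 223 to 341 with it (2 called without Wnt3a with the slide as a block), and 1 fell with β-catenin siRNA without Wnt3a. KDR also fell with Wnt3a in the presence of FZD8_CRD (-0.99), which was not called without replicate 1 (-0.77) or 2 (-0.85) of FZD8_CRD. Of 4 leukocyte and macrophage markers, with the probe of CD68 the brightest, 2 fell with β-catenin siRNA at each level of Wnt3a, CD14 and MARCO, with a sum of 280 to 339 against 450 to 539 with control siRNA without Wnt3a and of 297 to 348 against 486 to 525 with it. CD68 fell with FZD8_CRD without Wnt3a (-1.27), where 2 of the 4 were called with the slide as a block, and MARCO fell with Wnt3a after control siRNA (-1.21), a call lost without any 1 of the 6 arrays, at -1.33 to -1.03. CD68 rose with Wnt3a in the presence of FZD8_CRD (0.90), a call lost without any 1 of those 6 arrays except replicate 3 of FZD8_CRD, at 0.68 to 0.95. Of 2 tested stellate cell markers 1, DES, fell with β-catenin siRNA at each level of Wnt3a, and RELN was on 0 arrays. LRAT, the other, fell with FZD8_CRD in the presence of Wnt3a (-0.81), a call lost without replicate 1 of Wnt3a alone (-0.57) and without replicate 1 (-0.70) or 2 (-0.71) of FZD8_CRD plus Wnt3a. The part of these markers in the results for the WNT genes was not tested.

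For the 5 WNT genes called at least once and detected on all arrays, the tested genes with the most similar pattern were found by Pearson's r over the 8 condition means, out of 15996 genes, as a description without a test. WNT11 was closest to GATD3 (0.998), ACSS2 (0.997) and DACH1 (0.996), WNT7B to SUGCT (0.994), TMEM154 (0.991) and ALKBH5 (0.988), and WNT3 to CFAP36 (0.993), SNX24 (0.988) and PDZD2 (0.986). WNT6 was closest to IRAG1 (0.991), PLEKHA4 (0.978) and NF1P2 (0.976), and WNT5A to PSTPIP2 (0.972), OSBPL3 (0.972) and NR2F1-AS1 (0.969). With 8 means and this many genes, high values of r are common.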

How the data were processed

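HepaRG RNA was hybridised to 24 Agilent arrays in a single colour, with 62976 spots each, 3 for each of 8 conditions. The authors deposited intensity values that, per the file headers, are background-subtracted, detrended spot signals on a linear scale from Feature Extraction (10.7.1.1 in the headers, 10.7.3.1 in the labels), without normalization between arrays. The authors also deposited log2 values for 25443 probes, scaled to the 75th percentile per array and centred per probe, and these served as an alternative. Between 58.3% and 66.5% of the spots of an array were well above background, and the number of arrays limits the precision.

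Probes were named through the RefSeq transcripts of the array design. Spots marked as outliers were left out and spots of a probe averaged. Signals were divided by the 75th percentile of the array and set to at least 1.43% of it before log2 was taken. A gene stands for its kept probe with the highest mean. Of 31061 probes kept, 24643 genes were tested, 8646 of them without a symbol, with 41 missing values. The lmFit function of limma (version 3.58.1, R version 4.3.3) gave a mean per condition, and contrasts.fit and the trended form of eBayes gave 12 comparisons that share arrays, with all 24 arrays giving the spread. The fit was tested on simulated data. Plots came from Python 3.11.15 and its package matplotlib 3.10.9.

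Arrays with the same replicate number share a slide, per the labels and headers. After the mean of each condition was subtracted, such arrays had a mean correlation of 0.38, and 82 of 84 same-numbered pairs were over 0.1. Pairs with other numbers from different conditions had a mean of -0.19. That negative value follows largely from the subtraction and adds nothing to the first.

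The alternatives tried were the deposited values, quantile normalization, normexp (offset 50, run on the median signal since the files hold no mean signal), no filter, a filter on all 24 arrays, the weaker detection mark, outliers kept, a floor of 1 intensity unit, the mean of the probes or every probe of a gene, scaling to spike-ins, the slide as a block, only the conditions compared, the paper's thresholds (unadjusted p under 0.01 and a fold change above 1.5 or below 0.7), and leaving out slides or arrays. The members and the gene lists were chosen with earlier results of these data known. The text names every WNT member and, from the other lists, called genes, at most 5 per list and comparison. WNT10B with FZD8_CRD, and RNF43 as a check of the labels, were chosen after their values were seen.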

Additional observations from a re-analysis of the deposited data

Results flagged for a closer look

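WNT6 was picked out because, within every slide, its level was higher with Wnt3a after control siRNA (0.26, 0.08 and 0.64 on the log2 scale) and was lower with Wnt3a after β-catenin siRNA (-0.61, -0.52 and -0.42). The difference between these responses was -0.842. Tested in limma, it had an unadjusted p of 0.0172 and an adjusted p of 1, so that a difference in response is not shown.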

How the results depend on the processing

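Of the 18 changes of WNT genes called, 5 were called under each of the 13 processing alternatives, and without each slide and each array: WNT6 with β-catenin siRNA plus Wnt3a, WNT11 with FZD8_CRD without and with Wnt3a, and WNT6 and WNT7B with FZD8_CRD with Wnt3a. None of the 84 tested changes reversed a call, and 13 that were not called became called under at least 1 processing alternative.

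Processing alone took away these other calls, leaving WNT5B aside. Without a filter they were WNT5A for Wnt3a alone, WNT11 for Wnt3a after control siRNA, WNT5A for β-catenin siRNA with Wnt3a and WNT6 for FZD8_CRD without Wnt3a. Scaled to spike-ins they were the first 3 of these, WNT11 for Wnt3a with FZD8_CRD, WNT3 for β-catenin siRNA without and with Wnt3a, and WNT5A for FZD8_CRD without Wnt3a. With only the conditions compared they were WNT5A for Wnt3a alone, WNT7B and WNT11 for Wnt3a with FZD8_CRD, and WNT6 and WNT7B for FZD8_CRD without Wnt3a.

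Scaled to spike-ins, the number of all genes called went from 1381 to 301 for Wnt3a alone. It went from 5500 to 1525 for control siRNA without Wnt3a. It fell in every comparison except the difference in response with FZD8_CRD, where it rose from 18 to 32. For the other settings such numbers are not given, so a changed count is not shown to be particular to the WNT genes. The numbers of WNT genes called, WNT5B counted among the 7 tested, changed as follows. For Wnt3a alone 1 was called, which became 0 without a filter, scaled to spike-ins or with only the conditions compared, and 2 under the paper's thresholds. For Wnt3a after control siRNA 2 became 3 with quantile normalization, 1 with the deposited values, normexp, no filter, the filter on all 24 arrays or the floor of 1 unit, 0 scaled to spike-ins, and 4 with only the conditions compared or under the paper's thresholds. For Wnt3a after β-catenin siRNA 0 became 1 under the paper's thresholds. For Wnt3a with FZD8_CRD 2 became 1 scaled to spike-ins and 0 with only the conditions compared. For control siRNA without Wnt3a 0 became 1 with only the conditions compared. For control siRNA with Wnt3a 1 became 0 with the deposited values, normexp, the filter on all arrays, the floor of 1 unit, spike-ins or only the conditions compared, and 2 under the paper's thresholds. For β-catenin siRNA without Wnt3a 1 became 0 scaled to spike-ins and 4 with only the conditions compared, and with Wnt3a 4 became 3 with the deposited values, normexp, no filter or the filter on all arrays, and 2 scaled to spike-ins. For FZD8_CRD without Wnt3a 4 became 3 without a filter or scaled to spike-ins, and 2 with only the conditions compared. For the difference in response between the siRNAs 0 became 1 under the paper's thresholds. The filter on all arrays removes WNT5B by its construction, only the conditions compared leaves fewer arrays for the spread, and otherwise the cause was not tested.

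With the slide as a block, 2 were called for Wnt3a alone in place of 1, and 3 for β-catenin siRNA without Wnt3a in place of 1. It added WNT5A for Wnt3a after control siRNA, WNT11 for Wnt3a alone, WNT6 and WNT10A for β-catenin siRNA without Wnt3a, and WNT10A for β-catenin siRNA and FZD8_CRD with Wnt3a. It changed no other call of the 7 genes.

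Ranges over all tested genes are not given for the next setting. Leaving out a slide or a single array gave these ranges of WNT genes called, in the order of slides and then arrays. They were 0 to 3 and 0 to 3 for Wnt3a alone, 0 to 2 and 1 to 1 after control siRNA, 0 to 1 and 0 to 0 after β-catenin siRNA, and 0 to 3 and 0 to 3 with FZD8_CRD. For control siRNA they were 0 to 1 and 0 to 0 without Wnt3a, and 0 to 1 and 1 to 3 with it. For β-catenin siRNA they were 0 to 2 and 1 to 1, and 1 to 3 and 3 to 4. For FZD8_CRD they were 3 to 4 and 3 to 4, and 3 to 3 and 3 to 3. For the differences in response they were 0 to 1 and 0 to 0 between the siRNAs, and 0 to 2 and 0 to 2 with FZD8_CRD.

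Scaled to spike-ins, called genes of the other lists turned to a value of the opposite sign that was not called: ACTA2 (-0.0816), AXIN2 (-0.0266) and RYK (-0.0816) for Wnt3a alone, FZD6 (-0.0308) and RYK (-0.0794) for control siRNA without Wnt3a, and ACTA2 (-0.0889), KRT19 (-0.0263), SP5 (-0.20), TRABD2A (-0.0341) and VPS35 (-0.0303) for FZD8_CRD without Wnt3a. That scale shifts every gene of a comparison by the same amount, apart from the floor.

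Signal over background limits WNT5B and WNT10A, which lie near the floor, and the 3 genes that were not tested. With 3 arrays per condition, a change that was not called is not shown to be absent. Array position and condition cannot be told apart.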
